A study of Mus musculus with 12 samples.

Results

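Expression of 10 genes of EGF, HGF and FGF signalling was compared across the livers of mice that lack YAP: the EGF family receptors *Egfr* and *Erbb3*, the EGFR ligands *Hbegf*, *Areg*, *Tgfa* and *Btc*, the HGF receptor *Met* with its ligand *Hgf*, and *Fgfr4* with its co-receptor *Klb*. They were chosen by name as components of these pathways, and they make up 10 of the 41743 genes in the tables. All 10 had a value in every library. The 12 mice, all female and 3 to 4 months old, formed 4 groups of 3, and RNA of the whole liver was sequenced. In YAP KO mice, on C57BL/6, Cre driven by the *Foxa3* promoter removed both copies of *Yap1* from the foregut endoderm, and these mice also carried a floxed ROSA-stop-EYFP reporter. In YAP KO TAZ HET mice, on a mixed C57BL/6-FVB background, the same Cre removed both copies of *Yap1* and 1 copy of *Wwtr1*, the gene of TAZ. Both models thus share the loss of *Yap1*, and each has its own WT littermates, called WT (C57BL/6) and WT (mixed). Genotype was tied to the set of animals, which were also bred from different floxed *Yap1* stocks. The loss of 1 copy of *Wwtr1*, the background and the floxed stock therefore cannot be told apart. The level of *Yap1* that remained also differed between the models, as given below. *Foxa3*-Cre acts in the endoderm that gives rise to hepatocytes and biliary cells. The paper also mentions unshown evidence that this Cre line affects the developing kidney, which comes from mesoderm. Whether it acted in the stellate cells, endothelial cells and leukocytes of the same liver was not tested.

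Epidermal growth factor receptor (EGFR) and its relative ERBB3 are receptor tyrosine kinases of the hepatocyte surface. Their ligands are made as membrane-bound precursors that proteases of the ADAM family cut free, and ligand binding starts the RAS to ERK cascade and the PI3K to AKT branch and leads to uptake of the receptor. Hepatocyte growth factor (HGF) is made mainly by stellate cells, is activated by serine proteases and binds MET on hepatocytes. FGFR4 with beta-Klotho, the product of *Klb*, is the hepatocyte receptor for FGF15, a hormone of the ileum that lowers bile acid synthesis.

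The values are TPM, in which reads are divided by transcript length and set to the same total in each library, so levels of different genes can be set beside each other. *Yap1* was at 28.2 to 30.5 TPM in WT (C57BL/6) and 1.67 to 3.72 TPM in YAP KO livers, and at 31.0 to 33.2 TPM in WT (mixed) and 8.63 to 11.5 TPM with YAP KO TAZ HET. *Wwtr1* was at 6.26 to 6.83, 13.3 to 16.7, 7.73 to 8.38 and 11.5 to 14.1 TPM in the same order. Of 10 hepatocyte markers 9 were in the tables, with a summed level of 89918 to 142192 TPM over the 12 livers. For the tests, each library was divided by its own factor (0.852 to 0.947 in WT and 1.07 to 1.22 in knockout livers) and transformed to log2(scaled TPM + 1). limma was run on genes that reached 1 TPM in 3 or more libraries, and changes below are on that scale, which understates the change of genes at a low level. Without the factors the median log2 change of all tested genes was 0.28 for YAP KO and 0.24 for YAP KO TAZ HET mice, and with them -0.04 in both.

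The 3 tested ligands of EGFR were higher in both models. In YAP KO livers 6 of the 9 tested members passed an adjusted p of 0.05 (limma, Benjamini-Hochberg over all tested genes), 3 of them higher (*Hbegf*, *Tgfa*, *Btc*) and 3 lower (*Egfr*, *Met*, *Klb*), where 36.7% of the 11704 tested genes passed, 18.8% higher and 17.9% lower. In YAP KO TAZ HET livers 7 of 9 passed, 5 higher (*Hbegf*, *Tgfa*, *Btc*, *Hgf*, *Erbb3*) and 2 lower (*Met*, *Klb*), where 38.2% of 11741 genes passed, 19.2% higher and 19.0% lower. The median log2 change of the tested members was 0.26 and 0.48, beside -0.04 and -0.04 over all tested genes. Without scaling the calls were 6 higher and 1 lower for YAP KO, against 6 higher and 0 lower for YAP KO TAZ HET. In that setting 5224 of 11704 and 4975 of 11741 genes passed in either direction. Their median changes of 0.28 and 0.24 were above 0, so the shares given above do not apply to it. The count of 7 fell to 3 without YAP KO TAZ HET replicate LM250 or replicate LM251. The calls over all tested genes fell as well, from 4486 of 11741 to 3003 and 2833 of 11274. *Areg* missed the level filter in both models, and *Hbegf* and *Btc* reached 1 TPM in enough livers only with the knockout livers counted, so the count of calls is over genes that could enter partly because they were high there. In bulk liver, fewer cells of a type and less RNA per cell cannot be told apart.

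**Figure D1:**
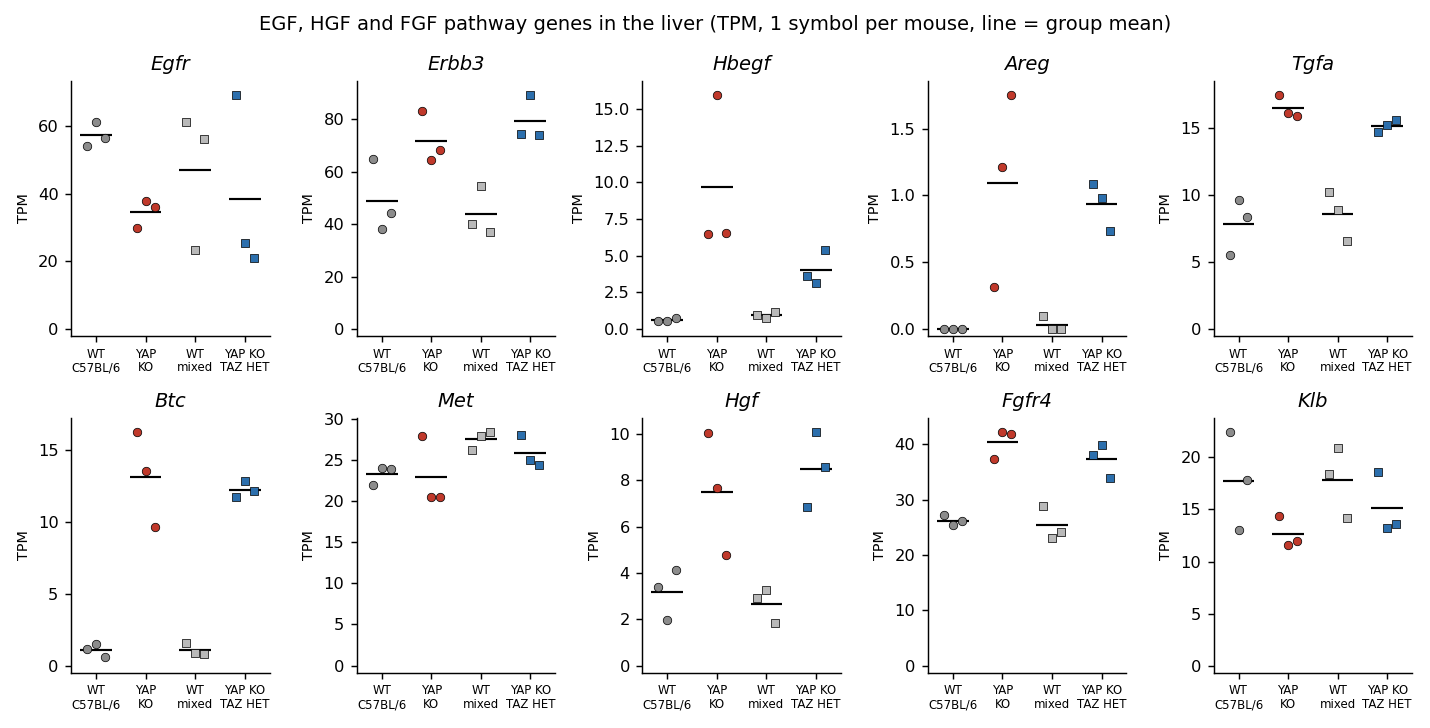
Levels of the 10 genes in TPM (vertical axes, linear and from 0) in the 4 groups on the horizontal axis, with 1 symbol for each of 3 mice per group and a line at the group mean. *Btc* was at 0.63 to 1.602 TPM in the 6 WT livers and at 9.63 to 16.3 TPM in the 6 knockout livers, and *Egfr* ranged from 20.8 to 69.1 TPM among the 6 mice of the mixed background.

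*Btc* encodes betacellulin, which binds EGFR and ERBB4, and lies on chromosome 5 of GRCm38 from 91357261 to 91402994. Values were 1.15, 1.51 and 0.630 TPM for WT (C57BL/6) and 16.3, 13.6 and 9.63 TPM for YAP KO mice. On the mixed background, WT livers had 1.602, 0.893 and 0.794 TPM and YAP KO TAZ HET livers 11.7, 12.8 and 12.2 TPM. Every knockout liver was above every WT liver, and the ratio of the mean TPM was 11.98 and 11.2. The log2 fold change was 2.49 (SE 0.21, limma adjusted p = 9.92e-05) for YAP KO and 2.45 (SE 0.16, limma adjusted p = 2.2e-05) for YAP KO TAZ HET mice, and it passed the threshold in all 14 alternatives of each model. The *Btc* transcript thus went from near the level of *Hbegf*, at which the ranges of both genes overlapped in WT (C57BL/6) livers, to near the level of *Tgfa* and *Klb* in YAP KO livers.

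*Areg* encodes amphiregulin, a ligand of EGFR, and lies on the same chromosome from 91139599 to 91148432, 208.8 kb before *Btc*. It was listed at 0 in all 3 WT (C57BL/6) livers and was at 0.314, 1.21 and 1.75 TPM in YAP KO livers. Of the WT (mixed) livers 1 was at 0.0972 TPM and 2 were listed at 0, and the YAP KO TAZ HET livers were at 1.08, 0.982 and 0.734 TPM. All 6 knockout livers were above all 6 WT livers, at levels that remained the lowest of the 10 genes in every group. Since fewer than 3 livers of either set reached 1 TPM, *Areg* was not tested within a model, and without the level filter its log2 change was 0.93 (SE 0.25, limma adjusted p = 0.0347) for YAP KO and 0.82 (SE 0.08, limma adjusted p = 0.000786) for YAP KO TAZ HET mice.

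The genes of *Epgn* (epigen), *Ereg* (epiregulin), *Areg* and *Btc* form a cluster of EGF family ligands. *Ereg* was at 0.0514 to 0.219 TPM in WT (C57BL/6) and 0.645 to 1.604 TPM in YAP KO livers, and at 0.113 to 0.302 and 0.319 to 0.549 TPM in the mixed set, and it was not tested. *Epgn* did not pass 0.131 TPM in any liver. Within 500 kb on either side of the interval from *Areg* to *Btc* the tables hold 25 genes, these included, of which 10 reached 1 TPM in some liver. Among them, and named after their values were seen, the neutrophil chemokine *Cxcl1* was at 3.59 to 6.45 TPM in WT (C57BL/6) and 59.4 to 248 TPM in YAP KO livers, with log2 fold changes of 4.03 (limma adjusted p = 0.000561) for YAP KO and 2.52 (limma adjusted p = 0.000228) for YAP KO TAZ HET mice, while *Rassf6*, at the far end of the window, had -0.29 (limma adjusted p = 0.19) and -0.50 (limma adjusted p = 0.00898).

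Of the ligands higher in both models, *Areg*, *Btc* and *Tgfa* had an entry among the RefSeq promoters used here. The 250 bases before the RefSeq start (GRCm38.p6) are shown for these ligands and for *Egfr*, their receptor. They were searched on both strands for GGAATG (the TEAD motif), TGANTCA (AP-1), TGACGTCA (the cAMP response element, CRE) and TATAAA (the TATA box), and matches are in capitals. No match of 1 motif overlapped a match of another. Of 32851 promoters of the same length, 12.6% held GGAATG, 6.75% TGANTCA, 1.55% TGACGTCA and 12.4% TATAAA.
*Areg*, chr5:91139349-91139598, plus strand: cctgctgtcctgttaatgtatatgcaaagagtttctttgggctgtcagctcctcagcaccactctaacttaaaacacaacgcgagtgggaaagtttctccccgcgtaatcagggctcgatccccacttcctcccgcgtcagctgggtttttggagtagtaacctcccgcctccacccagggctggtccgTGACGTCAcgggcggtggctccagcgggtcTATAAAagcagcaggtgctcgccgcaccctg
*Btc*, chr5:91402995-91403244, minus strand: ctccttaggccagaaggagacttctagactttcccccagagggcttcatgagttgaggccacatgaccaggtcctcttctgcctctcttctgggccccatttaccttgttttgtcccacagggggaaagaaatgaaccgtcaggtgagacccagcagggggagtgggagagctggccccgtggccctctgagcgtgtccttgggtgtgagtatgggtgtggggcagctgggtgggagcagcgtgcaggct
*Tgfa*, chr6:86194972-86195221, plus strand: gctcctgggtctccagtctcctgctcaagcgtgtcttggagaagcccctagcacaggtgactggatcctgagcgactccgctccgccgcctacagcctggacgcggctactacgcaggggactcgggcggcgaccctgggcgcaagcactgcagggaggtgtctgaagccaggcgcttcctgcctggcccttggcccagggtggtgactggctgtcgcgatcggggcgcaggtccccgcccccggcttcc
*Egfr*, chr11:16751953-16752202, plus strand: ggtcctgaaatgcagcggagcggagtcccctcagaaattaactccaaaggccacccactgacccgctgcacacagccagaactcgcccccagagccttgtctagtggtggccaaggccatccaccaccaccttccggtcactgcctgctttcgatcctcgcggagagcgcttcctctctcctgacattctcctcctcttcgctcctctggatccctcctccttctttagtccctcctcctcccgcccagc

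The *Areg* sequence held a CRE that begins 61 bases before the start and a TATA box that begins 31 bases before it. None of the 4 motifs was found in the sequences of *Btc*, *Tgfa* and *Egfr*, nor in those of *Hgf*, *Fgfr4* and *Klb*, and *Met* had 1 AP-1 match. Of the 10 members 8 had an entry in the promoter set used here, and *Erbb3* and *Hbegf* had none in it. A match is a description of these letters and was not tested for binding.

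*Hbegf* encodes heparin-binding EGF-like growth factor, which also binds EGFR and ERBB4. WT (C57BL/6) livers held 0.528, 0.536 and 0.715 TPM, and YAP KO livers 6.48, 15.9 and 6.55 TPM. The WT (mixed) values were 0.945, 0.738 and 1.18 TPM and the YAP KO TAZ HET values 3.61, 3.12 and 5.36 TPM. The groups did not overlap in either set, and 1 YAP KO liver, replicate LM189, was far above the other two. The log2 fold change was 2.40 (SE 0.32, limma adjusted p = 0.000903) for YAP KO and 1.14 (SE 0.20, limma adjusted p = 0.00308) for YAP KO TAZ HET mice. These changes differed by 1.27 (SE 0.41, 95% interval 0.37 to 2.17), with an unadjusted p of 0.00955 and an adjusted p of 0.901 over the 12159 genes tested for it (limma, 12 livers), so it did not pass the threshold.

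*Tgfa* encodes transforming growth factor alpha and was the EGFR ligand with the highest level in WT livers. The WT (C57BL/6) mice had 5.55, 9.63 and 8.38 TPM and the YAP KO mice 17.4, 16.1 and 15.9 TPM. Mixed-background mice had 10.2, 8.90 and 6.58 TPM as WT and 14.7, 15.2 and 15.6 TPM as YAP KO TAZ HET. The groups did not overlap in either set. The log2 fold change was 0.68 (SE 0.17, limma adjusted p = 0.0137) for YAP KO and 0.48 (SE 0.14, limma adjusted p = 0.0269) for YAP KO TAZ HET mice. The latter call was lost without WT (mixed) replicate LM230 (0.35, limma adjusted p = 0.0594), YAP KO TAZ HET replicate LM250 (0.46, 0.0824) or LM251 (0.43, 0.0938).

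Summed over *Hbegf*, *Areg*, *Tgfa* and *Btc*, the ligand level was 7.22 to 11.7 TPM in WT (C57BL/6) and 33.8 to 46.8 TPM in YAP KO livers, and 8.55 to 12.8 TPM in WT (mixed) and 31.1 to 33.9 TPM with YAP KO TAZ HET. The makeup of the sum differed as well. *Tgfa* held 76.8% to 86.2% of it in WT (C57BL/6) and 34.4% to 47.0% in YAP KO livers, and 76.9% to 84.5% and 46.1% to 47.3% in the mixed set. *Btc* held 6.48% to 15.9% in WT (C57BL/6) and 28.5% to 40.2% in YAP KO livers, with 8.48% to 12.5% and 35.9% to 39.9% in the mixed set. The share of *Hbegf* reached 34.1% in YAP KO replicate LM189 and was 9.70% to 15.8% in YAP KO TAZ HET livers.

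**Figure D2:**
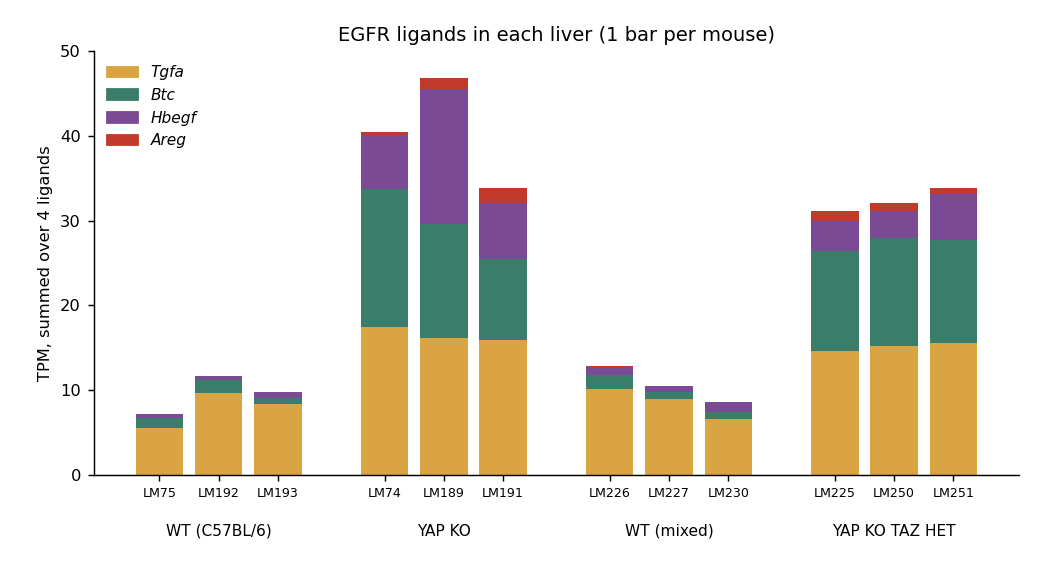
Summed level of 4 EGFR ligands in TPM (vertical axis from 0), as 1 stacked bar for each of 12 mice along the horizontal axis, coloured by gene. *Tgfa* makes up most of each WT bar, and the knockout bars, at 31.1 to 46.8 TPM, hold *Tgfa* and *Btc* in more equal parts.

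*Egfr* (chromosome 11 from 16752203 to 16918158) had the highest mean level of the 10 genes in both WT groups, with a range that overlapped that of *Erbb3*. Values were 54.2, 61.0 and 56.4 TPM for WT (C57BL/6) and 29.7, 37.9 and 36.1 TPM for YAP KO mice. The groups did not overlap, and *Egfr* fell by 1.07 on the log2 scale (SE 0.14, limma adjusted p = 0.000851), which held in all 14 alternatives. On the mixed background, WT livers had 61.0, 23.5 and 56.2 TPM and YAP KO TAZ HET livers 69.1, 25.4 and 20.8 TPM. Both of these groups held livers on either side of the wide gap between 25.4 and 56.2 TPM, and the log2 fold change of -0.68 (SE 0.45, limma adjusted p = 0.269) did not pass. Without YAP KO TAZ HET replicate LM225, the liver at 69.1 TPM, it was -1.16 (limma adjusted p = 0.0369). The difference in *Egfr* change between the models was -0.40 with a 95% interval of -1.57 to 0.78 (limma adjusted p = 0.999).

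Within 500 kb of *Egfr* 13 other genes are listed, and 7 reached 1 TPM in some liver. Among these the 4 with over 20 TPM in all livers of the mixed background, where *Egfr* ranged from 20.8 to 69.1 TPM, were *Sec61g*, *Ppp3r1*, *Pno1* and *C1d*. *Sec61g* ranged from 21.6 to 47.7 TPM in these 6 livers, *Ppp3r1* ranged from 29.3 to 37.0, *Pno1* from 29.9 to 40.0 and *C1d* from 21.9 to 27.5 TPM. *Egfros*, antisense to *Egfr*, was listed at 0 in all 12 livers. Of 12159 genes, those with a pattern most like *Egfr* over the 12 livers were *Fam192a* (Pearson r = 0.919), *Onecut1* (0.912), which encodes the liver transcription factor HNF6, and *Ctnnbl1* (0.902), and these correlations mix differences between and within groups. *Onecut1* had mean levels of 14.9 and 5.27 TPM in WT (C57BL/6) and YAP KO and of 10.8 and 5.02 TPM in WT (mixed) and YAP KO TAZ HET livers.

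*Erbb3* (chromosome 10 from 128567523 to 128589652) encodes the neuregulin receptor, which signals through its partners since its own kinase is weak. WT (C57BL/6) livers held 64.9, 37.99 and 44.2 TPM, and YAP KO livers 83.2, 64.4 and 68.3 TPM. The WT (mixed) values were 40.0, 54.7 and 37.0 TPM and the YAP KO TAZ HET values 74.3, 89.3 and 74.0 TPM. The groups overlapped in the first set and were apart in the second. On the scaled values WT (C57BL/6) replicate LM75, at 77.1, was above all YAP KO livers, at 59.9 to 68.9. The log2 fold change was 0.22 (SE 0.20, limma adjusted p = 0.432) for YAP KO and 0.54 (SE 0.17, limma adjusted p = 0.0361) for YAP KO TAZ HET mice, and the difference between these was -0.33 (95% interval -0.95 to 0.30). *Erbb3* passed in YAP KO mice without WT (C57BL/6) replicate LM75 (0.46, limma adjusted p = 0.0267) and without scaling (0.57, 0.0422). In YAP KO TAZ HET mice the call was lost without WT (mixed) replicates LM226 or LM230 or YAP KO TAZ HET replicates LM250 or LM251 (0.43 to 0.55, limma adjusted p = 0.0919 to 0.134), with no level filter (0.54, 0.0597) and with all 12 livers in 1 fit (0.54, 0.0538).

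The ratio of *Erbb3* to *Egfr* was 0.622 to 1.198 in WT (C57BL/6) and 1.70 to 2.80 in YAP KO livers. In the mixed set it was 0.655 to 2.33 in WT and 1.075 to 3.56 in YAP KO TAZ HET livers, which overlapped. *Egfr* stood at 5.23 to 7.503 times the summed ligand level in WT (C57BL/6) livers and at 0.733 to 1.068 times in YAP KO livers. In the mixed set this ratio was 2.23 to 6.57 in WT and 0.614 to 2.22 in YAP KO TAZ HET livers, so that the groups came close, at 2.23 in WT replicate LM227 and 2.22 in YAP KO TAZ HET replicate LM225. *Erbb4* was at 0.728 to 0.790 TPM in WT (C57BL/6) and 0.0734 to 0.258 TPM in YAP KO livers, and in the mixed set WT livers had 0.597 to 1.05 and knockout livers 0.0210 to 0.0761 TPM, with no overlap within a set. *Erbb2* did not pass 0.952 TPM in any liver, and neither gene was tested.

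**Figure D3:**
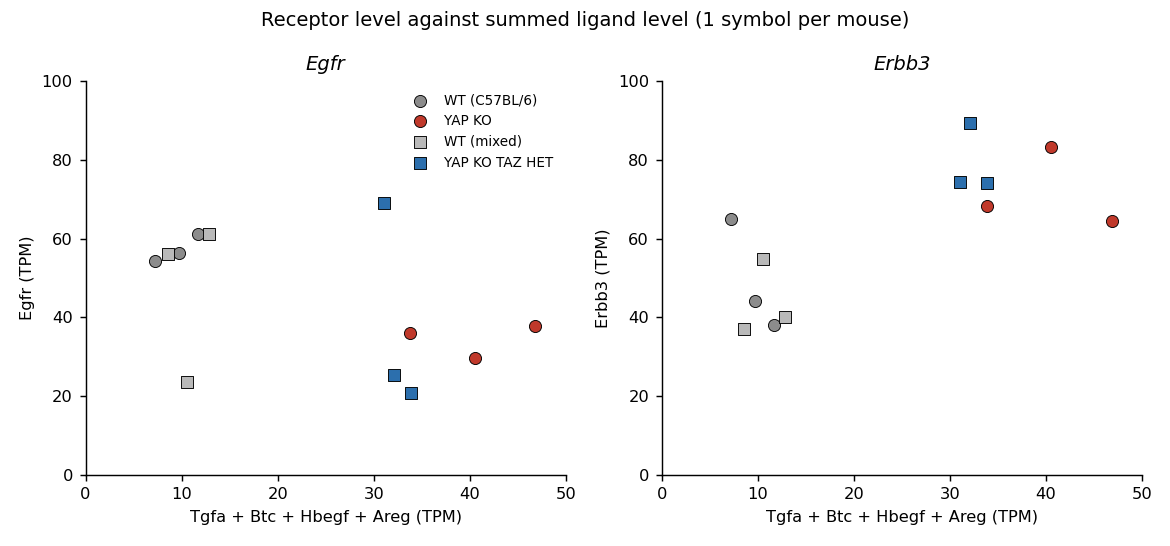
*Egfr* (left) and *Erbb3* (right) in TPM on the vertical axes against the sum of *Tgfa*, *Btc*, *Hbegf* and *Areg* in TPM on the horizontal axes, with 1 symbol per mouse, circles for the C57BL/6 and squares for the mixed set. Knockout livers lie to the right, at 31.1 to 46.8 TPM of ligand, and 1 knockout liver, at 69.1 TPM of *Egfr*, and 1 WT liver, at 23.5 TPM, stand apart from the rest of their groups.

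*Hgf* (chromosome 5 from 16553495 to 16620152) had 3.41, 1.95 and 4.11 TPM in WT (C57BL/6) mice, against 10.04, 7.65 and 4.75 TPM in YAP KO mice. Mixed-background mice had 2.90, 3.26 and 1.85 TPM as WT and 6.84, 10.1 and 8.57 TPM as YAP KO TAZ HET. The knockout livers were above their WT littermates in both sets in TPM, and on the scaled values 1 YAP KO liver fell within the WT range. The log2 fold change was 0.72 (SE 0.27, limma adjusted p = 0.0713) for YAP KO and 1.12 (SE 0.20, limma adjusted p = 0.00311) for YAP KO TAZ HET mice, and the difference between these was -0.40 (95% interval -1.20 to 0.40). *Hgf* passed in YAP KO mice without replicate LM191, its lowest YAP KO liver (0.95, limma adjusted p = 0.0321), without scaling (1.02, 0.0197) and with all 12 livers in 1 fit (0.71, 0.0448). The genes most like *Hgf* over the 12 livers were *Adamts9* (Pearson r = 0.952), *Leprot* (0.932) and *Stk24* (0.927).

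*Met* (chromosome 6 from 17463800 to 17573980) differed little in TPM between knockout livers and their WT littermates. The WT (C57BL/6) mice had 21.9, 23.99 and 23.9 TPM and the YAP KO mice 27.8, 20.5 and 20.5 TPM. On the mixed background, WT livers had 26.2, 27.9 and 28.4 TPM and YAP KO TAZ HET livers 27.97, 24.9 and 24.4 TPM. On the scaled values the groups did not overlap and *Met* fell by 0.38 (SE 0.11, limma adjusted p = 0.0297) and by 0.40 (SE 0.10, limma adjusted p = 0.0167), whereas without scaling the changes were -0.03 (limma adjusted p = 0.863) and -0.09 (0.517). In YAP KO mice the call was also lost with quantile normalization (-0.33, limma adjusted p = 0.0678) and without WT (C57BL/6) replicates LM192 or LM193 or YAP KO replicates LM189 or LM191 (-0.38 to -0.33, limma adjusted p = 0.0818 to 0.0969). In YAP KO TAZ HET mice it was lost without WT (mixed) replicate LM227 or YAP KO TAZ HET replicates LM250 or LM251 (-0.40 to -0.38, limma adjusted p = 0.0572 to 0.0627). The ratio of *Met* to *Hgf* was 5.82 to 12.3 in WT (C57BL/6) and 2.68 to 4.32 in YAP KO livers, and 8.56 to 15.3 in WT (mixed) and 2.47 to 4.09 in YAP KO TAZ HET livers, with no overlap within a set.

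*Fgfr4* (chromosome 13 from 55152640 to 55168759) had 27.2, 25.3 and 26.1 TPM in WT (C57BL/6) mice, against 37.4, 42.2 and 41.8 TPM in YAP KO mice. The WT (mixed) values were 28.9, 23.1 and 24.1 TPM and the YAP KO TAZ HET values 38.03, 39.9 and 33.8 TPM. The groups did not overlap in TPM, but on the scaled values they did in YAP KO mice, and the log2 fold changes of 0.26 (SE 0.12, limma adjusted p = 0.134) and 0.23 (SE 0.11, limma adjusted p = 0.125) did not pass. They passed without scaling (0.61, limma adjusted p = 0.00171, and 0.54, 0.00807) and with quantile normalization (0.33, 0.0414, and 0.33, 0.0385), and in YAP KO mice without replicate LM74 (0.37, 0.0402).

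*Klb* (chromosome 5 from 65348314 to 65384007) had 22.5, 13.0 and 17.8 TPM in WT (C57BL/6) mice, against 14.3, 11.6 and 11.97 TPM in YAP KO mice. Mixed-background mice had 18.4, 20.9 and 14.2 TPM as WT and 18.6, 13.2 and 13.6 TPM as YAP KO TAZ HET. The groups overlapped in TPM and were apart on the scaled values, on which *Klb* fell by 0.77 (SE 0.20, limma adjusted p = 0.0177) and by 0.53 (SE 0.16, limma adjusted p = 0.0296). Without scaling the changes were -0.43 (limma adjusted p = 0.099) and -0.22 (0.346). In YAP KO mice the call was lost without WT (C57BL/6) replicate LM193 (-0.76, limma adjusted p = 0.0547). In YAP KO TAZ HET mice it was lost without WT (mixed) replicates LM226 or LM227 or YAP KO TAZ HET replicates LM250 or LM251 (-0.54 to -0.40, limma adjusted p = 0.0682 to 0.104) and with no level filter (-0.53, 0.0513). The ratio of *Fgfr4* to *Klb* was 1.21 to 1.95 in WT (C57BL/6) and 2.61 to 3.64 in YAP KO livers, and 1.10 to 1.70 in WT (mixed) and 2.04 to 3.03 in YAP KO TAZ HET livers, so this ratio was higher in the knockout livers of both sets, with no overlap. *Hykk* (Pearson r = 0.953), *1700094D03Rik* (0.951) and *Robo4* (0.949) were most like *Klb* over the 12 livers, and *Pbx4* (0.982), *Cc2d1b* (0.977) and *Hdlbp* (0.968) were most like *Areg*.

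**Figure D4:**
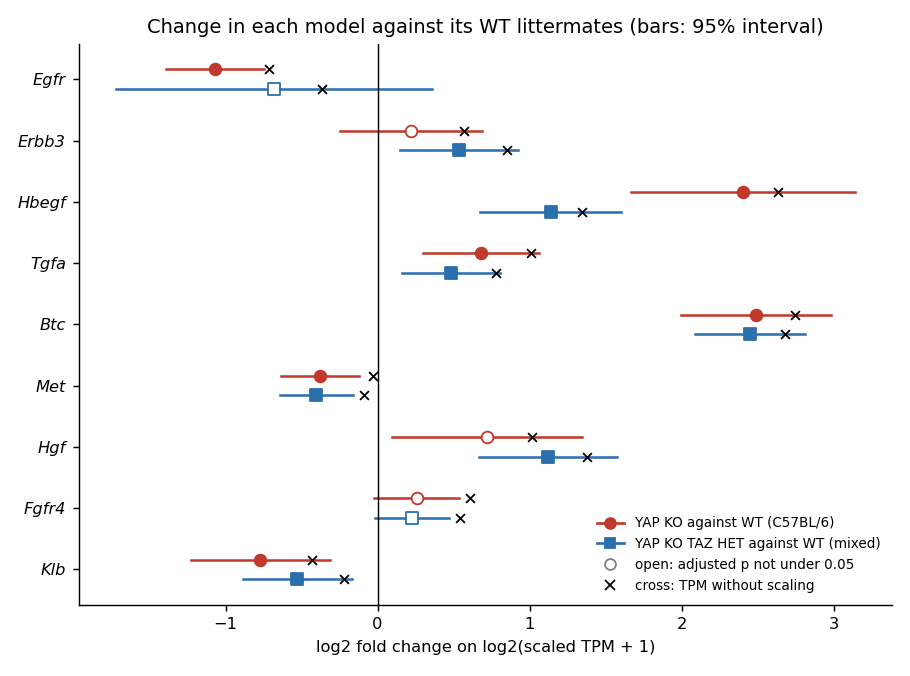
Log2 fold change on log2(scaled TPM + 1) (horizontal axis) of the 9 tested genes (vertical axis) in YAP KO (circles) and YAP KO TAZ HET mice (squares) against their WT littermates, with bars for the 95% interval, filled symbols for an adjusted p under 0.05 and crosses for TPM without scaling. *Btc* has the largest changes of the 9 on this scale, 2.49 and 2.45, and the crosses of *Met*, at -0.03 and -0.09, lie near 0.

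By mean TPM the order in WT (C57BL/6) livers was *Egfr*, *Erbb3*, *Fgfr4*, *Met*, *Klb*, *Tgfa*, *Hgf*, *Btc*, *Hbegf* and *Areg*, where the ranges of *Egfr* and *Erbb3*, of *Met* and *Klb* and of *Btc* and *Hbegf* overlapped. In YAP KO livers it was *Erbb3*, *Fgfr4*, *Egfr*, *Met*, *Tgfa*, *Btc*, *Klb*, *Hbegf*, *Hgf* and *Areg*, and the ranges of each pair of neighbours from *Tgfa* to *Hgf* overlapped, as did those of *Fgfr4* and *Egfr*. *Met* and *Fgfr4* changed places in WT (mixed) livers, where they overlapped. In YAP KO TAZ HET livers the order was *Erbb3*, *Egfr*, *Fgfr4*, *Met*, *Tgfa*, *Klb*, *Btc*, *Hgf*, *Hbegf* and *Areg*, and *Egfr* overlapped with *Fgfr4* and *Tgfa* with *Klb*. With 3 mice in a group the smallest exact permutation p is 0.1, which the mean TPM of *Btc*, *Hbegf*, *Areg*, *Tgfa*, *Hgf* and *Fgfr4* reached in both models, *Egfr* in YAP KO mice and *Erbb3* in YAP KO TAZ HET mice (two-sided). Of the 9 tested members 6 had groups that did not overlap in TPM in each model, where the same was true of 56.7% and 54.5% of all tested genes.

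No member had a change that differed between the 2 models past the threshold. In the fit of all 12 livers 0 of 10 members passed, where 0.0576% of 12159 genes did, and 1, *Hbegf*, was under an unadjusted p of 0.05, where 4.56% of genes were (limma). Between the WT groups 0 of 8 tested members passed, where 0.216% of 11126 genes did, and 0 were under an unadjusted p of 0.05, where 5.83% were (limma). *Met* was at 26.2 to 28.4 TPM in WT (mixed) and 21.9 to 23.99 TPM in WT (C57BL/6) livers, a log2 difference of 0.17 (SE 0.11, limma adjusted p = 0.942), and that of *Egfr* was -0.45 (SE 0.30, limma adjusted p = 0.96).

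The other genes of these pathways, and markers of liver cells, are given as counts per list, to be read against 18.8% higher and 17.9% lower over all tested genes for YAP KO and 19.2% and 19.0% for YAP KO TAZ HET mice (limma). These shares do not apply to the counts without scaling. There 5224 of 11704 and 4975 of 11741 genes passed in either direction, and the median changes of 0.28 and 0.24 shift all genes towards higher. Several named genes with low WT levels entered the test only with the knockout livers counted, namely *St14*, *Plat*, *Gab2*, *Dusp4*, *Dusp5* and *Cldn7* in both models and *Ier3* in YAP KO mice, so they could be called partly because they were high there. Among the 14 alternatives counted for a call is the stricter threshold of 0.01. Of 6 genes of ligand shedding 5 were tested, and 4 were higher for YAP KO and 3 for YAP KO TAZ HET mice. *Rhbdf2*, which encodes the partner that brings ADAM17 to the cell surface, was at 4.59 to 6.67 TPM in WT (C57BL/6) and 19.3 to 20.6 TPM in YAP KO livers, with log2 fold changes of 1.41 and 1.34 (limma adjusted p = 0.000164 and 0.000147). *Rhbdf1* had 1.01 and 0.58, and *Adam10*, the main sheddase of betacellulin, had 0.74 in both models, all past the threshold. *Adam17* itself, the sheddase of the products of *Tgfa*, *Hbegf* and *Areg*, rose by 0.54 in YAP KO mice (limma adjusted p = 0.00815) and had 0.25 in YAP KO TAZ HET mice (0.207), and the difference of 0.28 between the models did not pass (0.999). *Adam9* had 0.015 (limma adjusted p = 0.916) and -0.11 (0.457). *Adam17* and *Adam9* were named after their values were seen. Without scaling the counts of higher genes were 5 and 4.

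Among the 11 EGF family ligands 5 were tested in YAP KO mice, of which 4 were higher and 1 lower, and 4 in YAP KO TAZ HET mice, of which 3 were higher and 1 lower. These counts hold the members themselves. The neuregulin gene *Nrg1*, named after its values were seen, was at 0.0236 to 0.0951 TPM in WT (C57BL/6) and 1.19 to 1.43 TPM in YAP KO livers, and it passed the level filter through the latter alone (1.004, limma adjusted p = 0.00169). *Nrg4*, a hormone-like ligand of ERBB4, fell by 1.35 (limma adjusted p = 0.00666) for YAP KO and by 1.196 (0.0146) for YAP KO TAZ HET mice, and the latter was lost without YAP KO TAZ HET replicate LM250 (-1.07, limma adjusted p = 0.05195) or LM251 (-0.96, 0.0526). *Nrg3* was listed at 0 in all livers, and *Egf* did not pass 0.22 TPM. Of 10 genes of receptor feedback and turnover 2 were higher in YAP KO, and 3 were higher and 2 lower in YAP KO TAZ HET mice, and without scaling 5 and 4 were higher and 0 lower. *Socs3*, a suppressor of cytokine and growth factor signalling, rose by 2.60 and 2.15 (limma adjusted p = 6.41e-05 and 0.00166). *Cbl*, the ubiquitin ligase of EGFR, rose by 0.59 and 0.61 (0.0146 and 0.0153), and the former missed the threshold with quantile normalization (0.41, limma adjusted p = 0.0506) or without YAP KO replicate LM74 (0.49, 0.0502) and the latter without WT (mixed) replicate LM227 (0.55, 0.0519). The EGFR inhibitor *Errfi1*, named here after its values were seen, was at 401 to 1065 TPM in YAP KO livers (-0.14, limma adjusted p = 0.811) and fell by 0.77 in YAP KO TAZ HET mice (0.00802).

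The activators of HGF went in both directions. Of 10 genes of HGF activation and its inhibitors 8 were tested, and 3 were higher and 4 lower in YAP KO and 4 higher and 4 lower in YAP KO TAZ HET mice. *St14*, which encodes the membrane protease matriptase, rose by 1.95 in both models, from 0.373 to 0.468 TPM in WT (C57BL/6) to 4.39 to 6.89 TPM in YAP KO livers. *Plat*, the gene of tissue plasminogen activator, rose by 2.74 and 1.97, from at most 0.608 TPM in WT livers, 1 of them listed at 0. *Hgfac*, the circulating HGF activator made by hepatocytes, fell by 0.79 and 0.68, and *F11*, coagulation factor XI, fell by 1.10 and 0.83 (limma adjusted p at most 0.00678 for these 4 genes). The call of *Hgfac* in YAP KO TAZ HET mice was lost with quantile normalization (-0.31, limma adjusted p = 0.0685). Of 4 genes of HGF and the related ligand MSP and their receptors 3 were tested. Besides *Hgf* and *Met* this was *Mst1*, the gene of MSP, with -0.08 and 0.08 (limma adjusted p = 0.741 and 0.537), which without scaling were 0.28 (0.104) and 0.41 (0.0117) and with quantile normalization 0.19 (0.255) and 0.37 (0.015). *Mst1r*, the receptor of MSP, did not pass 1.204 TPM. Without scaling 3 and 4 genes of HGF activation were higher and 2 and 2 lower.

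Of 7 FGF receptors and co-receptors 6 were tested, and 1 was higher and 3 lower in YAP KO and 1 higher and 4 lower in YAP KO TAZ HET mice. *Fgfr1*, a receptor that hepatocytes make little of, was at 2.50 to 4.71 TPM in WT (C57BL/6) and 11.7 to 16.003 TPM in YAP KO livers, and rose by 1.44 and 1.66 (limma adjusted p = 0.00141 and 0.00177). *Fgfr3* fell by 1.01 and 0.93 (0.000881 and 0.00289). *Fgfrl1*, a receptor without a kinase, fell by 0.52 and 0.89 (0.0302 and 0.00108), and the former held in 7 of 14 alternatives and was lost without scaling (-0.18, 0.379), with quantile normalization (-0.45, 0.0515) and without WT (C57BL/6) replicates LM75 or LM193 or YAP KO replicates LM74 or LM189 (-0.54 to -0.43, limma adjusted p = 0.0639 to 0.101). Without scaling 2 and 2 genes of the list were higher and 1 and 2 lower. Of 10 FGF ligands 2 were tested. *Fgf1*, at 25.9 to 44.3 TPM in WT (C57BL/6) and 10.1 to 14.2 TPM in YAP KO livers, fell by 1.92 and 1.59 (limma adjusted p = 0.000212 and 1.86e-05), and *Fgf21* had 1.08 and 0.54 (0.187 and 0.423). *Fgf15* was listed at 0 in all 12 livers. Of 3 genes of the FGF15 response 1 was lower for YAP KO and 3 for YAP KO TAZ HET mice. *Cyp8b1*, the bile acid 12-alpha-hydroxylase, fell by 2.13 and 2.74 (0.0179 and 0.00399), where the former held in 10 of 14 alternatives and was lost without WT (C57BL/6) replicate LM192 (-1.80, 0.0609) or YAP KO replicate LM74 (-1.96, 0.0616) and with robust shrinkage (-2.13, 0.0644). *Cyp7a1*, the rate-limiting enzyme of bile acid synthesis, had -0.99 (limma adjusted p = 0.108) and fell by 1.59 (0.0381). The latter call held in 5 of 14 alternatives and was lost without scaling (-1.27, limma adjusted p = 0.0840), with quantile normalization (-1.34, 0.0893), with no level filter (-1.59, 0.0773), with robust shrinkage (-1.59, 0.0852) and without WT (mixed) replicates LM226 or LM227 or YAP KO TAZ HET replicates LM250 or LM251 (-1.38 to -1.26, 0.110 to 0.124).

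Of 10 heparan sulfate proteoglycans, which hold HGF, FGFs and HB-EGF at the cell surface, 9 and 8 were tested, and 4 were higher and 2 lower in YAP KO and 2 higher and 2 lower in YAP KO TAZ HET mice, and without scaling 5 and 4 were higher and 1 and 0 lower. *Sdc1*, the main syndecan of hepatocytes, was at 168 to 209 TPM in WT (C57BL/6) and 332 to 433 TPM in YAP KO livers, and rose by 0.75 and 0.58. *Sdc3* rose by 0.68 and 0.95, and the former held in 9 of 14 alternatives and was lost without WT (C57BL/6) replicates LM192 or LM193 or YAP KO replicates LM74 or LM189 (0.50 to 0.69, limma adjusted p = 0.0553 to 0.0800). *Sdc2* fell by 0.65 and 0.50, and the latter was lost without scaling (-0.18, limma adjusted p = 0.156) and with quantile normalization (-0.25, 0.0585). In the adaptors and the ERK cascade, with 19 genes tested, 3 were higher and 1 lower in YAP KO and 5 higher and 1 lower in YAP KO TAZ HET mice, and without scaling 10 and 8 were higher and 0 lower. *Mapk3*, the gene of ERK1, rose by 0.95 and 0.86 (limma adjusted p = 0.000266 and 0.00507), and the adaptor *Gab2* by 0.87 and 0.88. Of 8 genes of PI3K and AKT 2 and 3 were lower and 0 were higher, with medians of -0.19 and -0.24, and without scaling 1 and 1 were lower and 2 and 0 higher, with medians of 0.14 and 0.05. *Pik3r1*, the regulatory subunit p85-alpha, fell by 0.96 and 1.14, and *Akt2* fell by 0.33 and 0.42, where without scaling the former turned to 0.02 (limma adjusted p = 0.861) and the latter was -0.10 (0.429). The *Akt2* call in YAP KO mice held in 5 of 14 alternatives, and it was lost with quantile normalization (-0.22, limma adjusted p = 0.0908) and without any 1 of the 6 mice of that set (-0.37 to -0.27, 0.0516 to 0.114).

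Genes that ERK signalling is known to induce moved in both directions. Of 16 genes of this list 13 were tested, and 4 were higher and 3 lower in YAP KO and 4 higher and 5 lower in YAP KO TAZ HET mice, with medians of 0.18 and -0.15. Without scaling 6 and 4 were higher and 1 and 2 lower, with medians of 0.46 and 0.07. *Ier3* rose by 2.56 and 1.54, the MAP kinase phosphatases *Dusp4* by 2.18 and 1.57 and *Dusp5* by 1.59 and 1.21, and the inhibitor *Spry4* fell by 0.99 and 2.05. In YAP KO mice the *Spry4* call held in 6 of 14 alternatives and was lost without scaling (-0.70, limma adjusted p = 0.0594), with no level filter (-0.99, 0.0515) and without any of the mice but YAP KO replicate LM189 (-1.02 to -0.72, 0.0545 to 0.0738). That of *Dusp5* held in 9 of the 13 that gave a value and was lost with no level filter (1.59, limma adjusted p = 0.0505) and without WT (C57BL/6) replicates LM192 or LM193 (1.53 to 1.54, 0.0642 to 0.0676). YAP KO replicate LM189, the liver with the highest *Hbegf*, also had the highest of the 3 values of *Ier3* (34.1 TPM), *Dusp4* (11.8 TPM) and *Dusp5* (15.5 TPM), and *Spry4* (5.68 TPM). This rests on 1 liver and was picked after the values were seen. *Spred1*, *Spred2*, *Spred3*, *Etv5* and *Phlda1* of the same list were not highest in that liver, and a link to *Hbegf* was not tested.

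**Figure D5:**
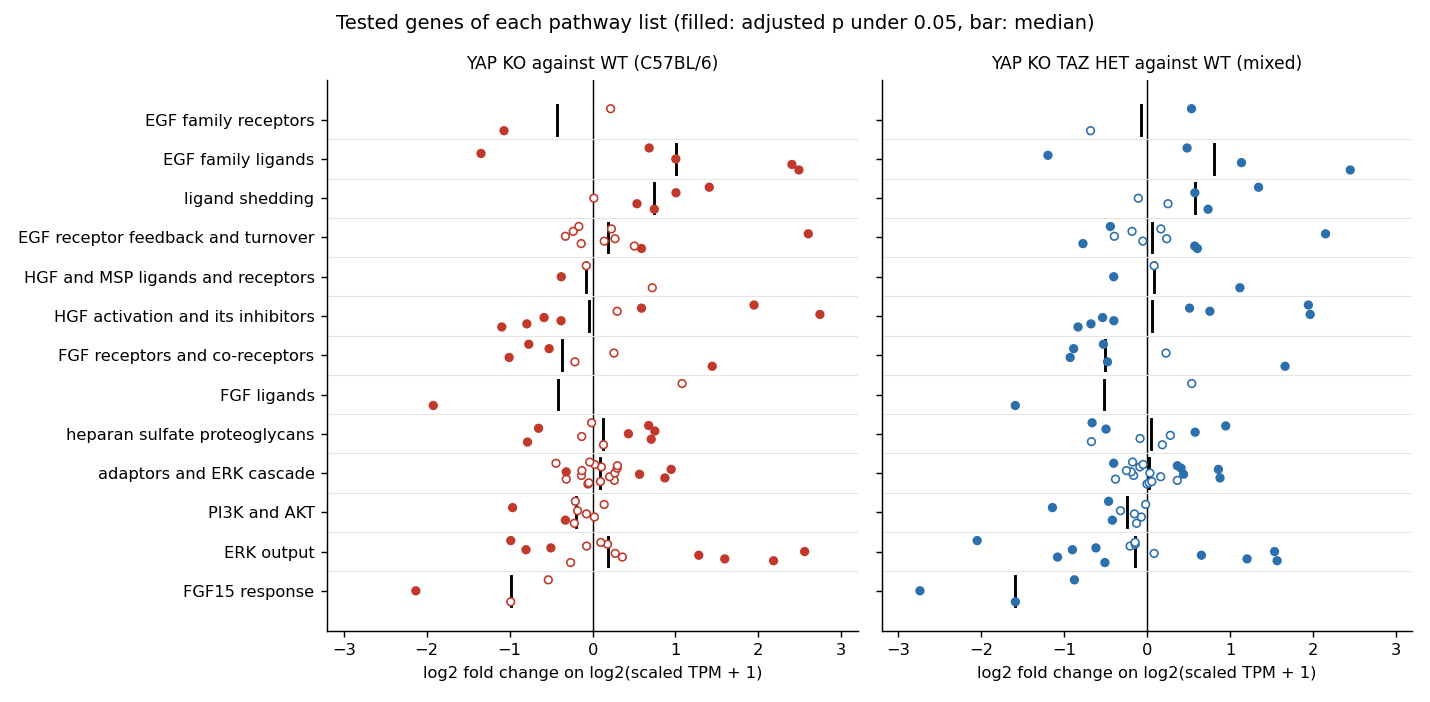
Log2 fold change on log2(scaled TPM + 1) (horizontal axes) of the tested genes of 13 pathway lists (rows) in YAP KO (left) and YAP KO TAZ HET mice (right), with 1 dot per gene, filled where the adjusted p is under 0.05, and a bar at the median. The EGF family ligands have medians of 1.004 and 0.81 and the ligand shedding genes 0.74 and 0.58, which without scaling were 1.11, 1.06, 1.08 and 0.85. *Btc*, *Hbegf* and, in YAP KO mice, *Nrg1* entered the test only with the knockout livers counted. The ligand medians could thus be high partly through the level filter, and 1.004 is the value of *Nrg1* itself.

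Marker lists of the liver cell types differed in how many of their genes changed. Of 12 stellate cell and fibroblast markers 6 were higher in each model and 2 lower in YAP KO mice, with *Col1a1* up by 4.02 and 3.11 and *Pdgfrb* by 1.85 and 1.72. *Lrat* and *Rgs5* of this list, named after their values were seen, were lower in every YAP KO than in every WT (C57BL/6) liver. *Lrat* spanned 3.94 to 6.46 TPM against 6.73 to 9.74 TPM, and *Rgs5* 7.66 to 10.66 against 12.02 to 17.12 TPM. In the mixed set the WT and knockout ranges of both genes overlapped. The summed level of the 12 markers was 160 to 188 and 420 to 537 TPM in WT (C57BL/6) and YAP KO and 150.2 to 188 and 368 to 463 TPM in WT (mixed) and YAP KO TAZ HET livers. Of 10 macrophage markers 9 were higher in each model, with *Marco* up by 2.71 and 2.84, and their sum was 218 to 268, 544 to 855, 193 to 414 and 825 to 1018 TPM in the same order. Of 8 neutrophil markers 5 and 3 were tested and 4 and 1 were higher, with sums of 7.71 to 16.2, 51.3 to 58.6, 5.08 to 7.21 and 11.2 to 56.6 TPM. The level filter also let some markers in only with the knockout livers counted. These were *Itgam* and *Ccr2* in both models, *Retnlg* in YAP KO mice and *S100a8*, *Pdgfra*, *Cd3g* and *Gata3* in YAP KO TAZ HET mice, named after their values were seen. Counts of higher markers could thus be high partly through the filter. Of 10 cholangiocyte markers 7 were tested and 3 were higher in each model (*Cldn7*, *Spp1* and *Sox9*) and 0 and 1 lower (*Epcam*, which fell by 1.48 in YAP KO TAZ HET mice), with sums of 38.2 to 66.3, 350 to 774, 52.0 to 69.3 and 131 to 244 TPM, of which *Spp1* held the most. *Epcam* and *Krt19* define these cells. In the C57BL/6 set the groups overlapped, with *Epcam* at 0.545 to 2.14 TPM for YAP KO against 0.624 to 2.46 TPM for WT. *Krt19* spanned 0.608 to 3.15 and 0.216 to 1.59 TPM in the same order. In the mixed set *Epcam* spanned 0.240 to 0.544 TPM for the knockout against 1.65 to 3.36 TPM for WT, with no overlap. *Krt19* did overlap there, at 0.404 to 1.82 and 0.963 to 6.39 TPM.

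Of 9 endothelial markers 1 and 2 were higher and 3 and 3 lower, with sums of 119 to 136, 123 to 173, 149 to 171 and 143 to 191 TPM. Of 9 hepatocyte markers 0 and 0 were higher and 4 and 3 lower, with sums of 124703 to 132928, 91486 to 100759, 116280 to 142192 and 89918 to 110300 TPM. Of 12 lymphocyte and mast cell markers 5 and 7 were tested and 0 and 2 were higher, with sums of 10.9 to 13.4, 10.8 to 22.3, 9.51 to 13.3 and 14.1 to 15.5 TPM. No marker of these 7 lists was listed at 0 in all 12 livers, and *Tf* and *Fcn3* were not used here. The part of these cells in the levels of the 10 members was not tested.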

How the data were processed

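RNA-seq of frozen whole liver from 12 mice was used as TPM tables that the authors deposited after alignment to GRCm38 and quantification per gene in CLC Genomics Workbench. The study states 1 sequencing depth for all samples, but read counts were not used here, so the depth behind each value is unknown and no interval for counting error is given. The columns of fold change, p and false discovery rate from the authors' edgeR comparisons were not used. TPM were divided by a factor per library, from the mean of log ratios to 1 reference library after trimming 30% of ratios and 5% of levels at each end. The reference was the library whose upper quartile was nearest the mean upper quartile, and the factors were then divided by their geometric mean. The values of log2(scaled TPM + 1) were fitted with limma 3.58.1 in R 4.3.3 (trended empirical Bayes, two-sided, Benjamini-Hochberg threshold 0.05) for genes that reached 1 TPM in 3 or more of the libraries fitted. Each model was fitted with its own WT littermates, and the difference between models with all 12 libraries. Code was tested on simulated data. p-values measure the spread between mice.

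The members, gene lists and tests were chosen with earlier results of these data known. Named list genes were at most 4 per list, those past the threshold in both models with the largest mean absolute change, or where fewer than 2 passed the 2 with the highest level, together with untested ligands and receptors. Genes named after their values were seen are marked. A gene that the rule would name is not reported here. Likeness was Pearson's r over 12 livers for *Egfr*, *Areg*, *Hgf* and *Klb*. Tried besides were unscaled or quantile-normalized values, a pseudocount of 0.1, a level filter of 5 TPM or none, robust shrinkage, a joint fit of all libraries, a threshold of 0.01 and each mouse left out in turn. Promoters were taken from RefSeq on GRCm38.p6. Python 3.11.15, pandas 2.3.3, scipy 1.17.1 and matplotlib 3.10.9 were used.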

Additional observations from a re-analysis of the deposited data

How the results depend on the processing

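At an adjusted p under 0.01, a stricter threshold, the count of members called went from 6 to 3 for YAP KO and from 7 to 3 for YAP KO TAZ HET. Over all tested genes the calls went from 4296 to 2501 of 11704 and from 4486 to 2642 of 11741. Leaving out 1 mouse gave 4 to 7 members in YAP KO mice and 3 to 8 in YAP KO TAZ HET mice, with 3 without YAP KO TAZ HET replicate LM250 or LM251, where fewer mice were tested. The calls over all genes were then 3100 to 3965, of 11162 to 11596 tested, and 2833 to 4067, of 11272 to 11652 tested. The other alternatives gave 6 to 8 members in both models, where 3457 to 5224 genes were called for YAP KO and 3549 to 4975 for YAP KO TAZ HET. The number of members whose change differed between the models, and of those that differed between the WT groups, was 0 in every alternative run. Pairs of neighbours in the order of levels that did not overlap numbered 23, and 24 on scaled TPM and 22 to 25 with 1 mouse left out.

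The difference in *Egfr* change between the models, -0.40, ranged from -0.69 to 0.081 with 1 mouse left out. It reversed to 0.022 when WT (mixed) replicate LM227 was left out and to 0.081 for YAP KO TAZ HET replicate LM225, and the cause was not tested. *Btc*, *Hbegf* and, in YAP KO mice, *Egfr* and, in YAP KO TAZ HET mice, *Hgf* passed in each alternative that gave a value for them at a threshold of 0.05. *Met*, *Klb*, *Erbb3*, *Fgfr4*, *Tgfa* and, in YAP KO mice, *Hgf* did not keep their call in at least 1 alternative of a model. No paired analysis was possible because the labels give mouse numbers that the groups do not share. With TPM alone, low levels such as those of *Areg* cannot be given a counting error.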
